A study of Sus scrofa with 18 samples.

Results

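Visceral fat (VAF) taken beside the kidney of Bama pigs, a miniature breed, was compared between 3 and 6 months of age, in 6 of the 18 RNA-seq libraries of the study. The libraries came from 9 male pigs of one sire, fasted for a day before slaughter, with 3 pigs at each of 1, 3 and 6 months. The 3-month group holds VAF3-1, VAF3-2 and VAF3-3, and the 6-month group VAF6-1, VAF6-2 and VAF6-3, all of them untreated animals of one breed. The members were chosen by the library names in the count table, and VAF6-3, which the study did not use when it screened for differentially expressed genes (DEGs), was left out of the tests unless stated. Its values are given beside those of the genes and lists described. Each library is a piece of whole tissue, so every level is an average over its cell types.

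Visceral fat around the kidney grows after birth mainly as adipocytes fill with triglyceride. In pigs adipose tissue is the main site of fatty acid synthesis: glucose carbon leaves the mitochondria as citrate, is split to acetyl-CoA in the cytosol, and is built into palmitate that is then elongated and desaturated. Kidney, ureter and adrenal gland lie next to this depot, and these organs contain epithelium or smooth muscle.

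The sample labels disagree with themselves for 4 of the 18 samples. The sample titled as VAF replicate 3 of 3 months carries the library name VF6-1 in its description, and the sample titled as VAF replicate 3 of 6 months carries VF3-3. The samples titled as VAF replicates 1 and 2 of 6 months carry VF6-2 and VF6-3. The age therefore differs between title and library name in 2 samples, and the groups here follow the library names. As a description of the libraries, 9 genes were split into a high and a low set, at least 2 log2 units apart, in the 6 SAF libraries (subcutaneous fat) and in the 6 VAF libraries of these ages. With the library names, 7 of the 9 genes had the same set in both depots for all 6 numbers, and with the titles 0 of 9 did. MAP6, which encodes a microtubule-associated protein, had levels of 10.3, 13.7 and 0.969 CPM (counts scaled to 1000000 per library) in the libraries VAF3-1, VAF3-2 and VAF3-3 and at 25.3, 28.8 and 0.380 in VAF6-1, VAF6-2 and VAF6-3, while the SAF libraries of the same numbers had 33.3, 37.4 and 1.70 and then 46.9, 45.9 and 0.746. No sample was moved to another group for these values.

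The libraries held between 17162797 counts on genes in VAF3-1 and 22341686 in VAF6-3, and 18096 to 19289 genes had at least 1 count. The 10 highest genes took 18.6% of the counts in VAF6-2 and 6.59% in VAF6-3. CPM are scaled by TMM, a factor that evens out composition between libraries, and a log2 fold change (log2FC) is positive where expression was higher at 3 months. Calls needed an adjusted p (Benjamini-Hochberg) under 0.05 together with a change of more than 1.5-fold in either direction. With edgeR's quasi-likelihood test on VAF3-1, VAF3-2 and VAF3-3 against VAF6-1 and VAF6-2, 0 of 15596 genes were called (0.0%), with a lowest adjusted p of 0.452, while 1683 genes (10.8%) had an unadjusted p under 0.05, 1035 of them higher at 3 months (6.64%) and 648 higher at 6 months (4.15%). With 1 library left out in turn, that count ran from 482 without VAF6-2, with 229 higher at 3 months and 253 higher at 6 months, to 4037 without VAF3-3, and was 2592 with the groups taken from the sample titles. Once VAF6-3 was added to the 6-month group, 0 of 14962 genes were called (0.0%), the lowest adjusted p was 0.215 and 1208 genes (8.07%) had an unadjusted p under 0.05. DESeq2 called 518 of 16264 genes (3.18%) without VAF6-3, 357 higher at 3 months (2.2%) and 161 higher at 6 months (0.99%). With VAF6-3 it called 503 (3.06%), but 442 of them were higher at 3 months (2.68%) and 61 higher at 6 months (0.371%). Without VAF3-3, edgeR called 1689 of 15328 genes (11.0%), of which 990 were higher at 3 months (6.46%) and 699 higher at 6 months (4.56%). Without VAF3-3 and with VAF6-3 it called 711 of 15598 (4.56%), 605 higher at 3 months (3.88%) and 106 higher at 6 months (0.68%). With the spread estimated over all groups, which took 17 libraries of both depots from 9 pigs as independent, edgeR called 7 of 16664 genes (0.042%). These were ATP6V0A4 and PRC1, higher at 3 months (0.012%), and ACADVL, AIFM2, CD247, WFS1 and a gene without a symbol of its own (LOC100525590), higher at 6 months (0.03%). Levels of the groups did not overlap in 4149 genes (26.6%). The count of edgeR calls thus turned on 1 library, VAF3-3. Each library of a group came from a different pig, and p-values measure the spread between these few animals.

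VAF3-1 and VAF3-2 stood apart from VAF3-3 in the make-up of their RNA. Markers of urothelium, the lining of ureter and bladder, summed to 5724 CPM in VAF3-1 and 2452 in VAF3-2, but to 41.3 in VAF3-3, 64.2 in VAF6-1, 16.5 in VAF6-2 and 14.2 in VAF6-3. Smooth muscle markers summed to 10757 and 9387 CPM in VAF3-1 and VAF3-2, against 803 in VAF3-3 and 1051 to 1410 in the 6-month libraries. Adipocyte markers ran the other way, with 4565 CPM in VAF3-1 and 4446 in VAF3-2, against 12142 in VAF3-3, 15540.3 in VAF6-1, 12952 in VAF6-2 and 8893 in VAF6-3. Kidney tubule and glomerulus markers were low throughout, at 24.8, 9.12 and 63.3 CPM at 3 months and 6.87, 3.78 and 1.82 at 6 months. In the 1-month VAF libraries urothelium markers summed to 22.9 to 30.1 CPM and smooth muscle markers to 830 to 1640, closer to VAF3-3 than to the pair. In whole tissue, fewer cells of a type and less RNA per cell cannot be told apart.

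**Figure D1:**
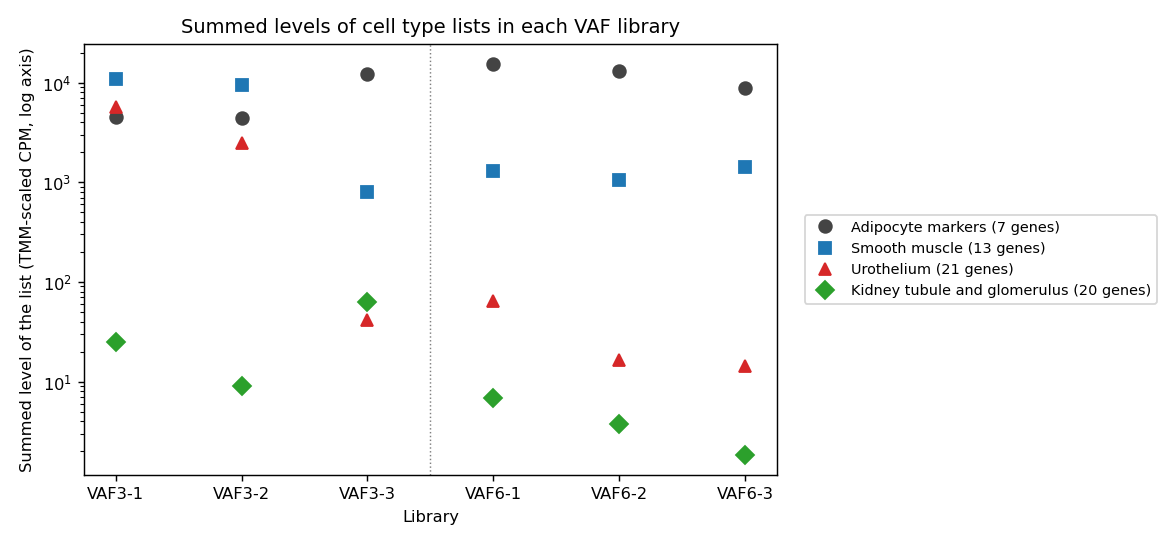
Summed CPM (log axis) of 4 cell type lists in each of the 6 VAF libraries, 1 point per list and library, with 3 months left of the dotted line. Urothelium and smooth muscle points of VAF3-1 and VAF3-2 lie far above the other 4 libraries, where urothelium sums to at most 64.2 CPM, and their adipocyte points lie lowest.

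Genes were therefore set apart by which 3-month libraries differed from VAF6-1 and VAF6-2, on the log2(CPM + 1) scale and without a test. A gene followed VAF3-1 and VAF3-2 only when both lay on one side of the 6-month range and their mean differed by at least 1. VAF3-3 then differed by less than 0.5 of that amount or in the other direction. This class held 1359 genes that were higher in the pair (8.71% of those tested) and 817 that were lower (5.24%). In the first, the median difference was 1.67 for the pair and 0.05 for VAF3-3. Another 272 genes were higher (1.74%) and 141 lower (0.904%) in VAF3-3 only, by at least 1 and outside the 6-month range. There the pair differed by less than 0.5 of that amount or in the other direction. A gene that met both rules was counted here, so the pair was not at the 6-month level in each of them. Of the smooth muscle markers, 2 were among the 141, though all 13 had a log2FC above 0. All 3 libraries differed alike, each by at least 0.5 of the other's amount, in 915 genes higher at 3 months (5.87%) and 1209 genes higher at 6 months (7.75%), with median differences near 0.60 and -0.61 for the pair and 0.55 and -0.57 for VAF3-3. On CPM scaled by raw library totals instead of TMM, which raised the median difference of 3 from 6 months over all tested genes from 0.01 to 0.24, the shared class held 2046 genes higher at 3 months and 542 higher at 6 months, and the class of the pair only held 1752 and 506. The majority in the shared class therefore turned with the scaling. With VAF6-3 counted in the 6-month range, 408 genes were shared in each direction. The limits cut through a continuous cloud, since 26 genes lay within 0.01 above the limit of 1 and 31 within 0.01 below it.

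**Figure D2:**
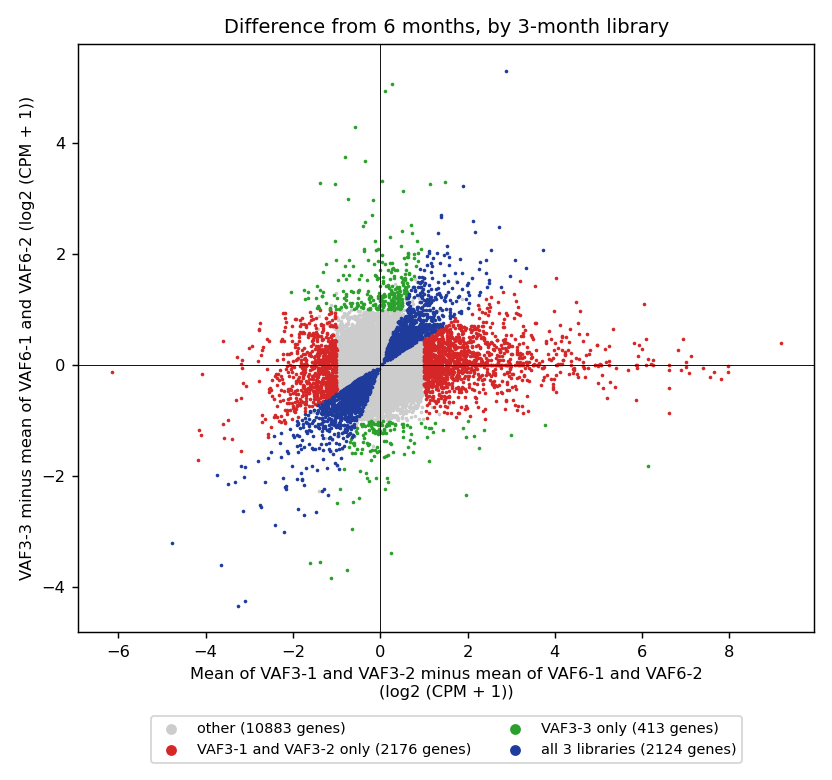
Each point is 1 of 15596 tested genes, with the mean difference of VAF3-1 and VAF3-2 from 6 months on the x axis and that of VAF3-3 on the y axis, both on the log2(CPM + 1) scale. The 1359 genes to the right along the x axis were high in VAF3-1 and VAF3-2, with a median difference of 0.05 in VAF3-3, while the 2124 blue genes lie along the diagonal.

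The calls of DESeq2 divided between these classes by direction. Of the 357 genes it called higher at 3 months, 353 were among those tested in edgeR. Of these, 256 (72.5%) followed VAF3-1 and VAF3-2 only, 93 (26.3%) were shared by all 3 libraries and 4 were high in VAF3-3 only. Of the 161 it called higher at 6 months, 17 (10.6%) followed the pair only and 144 (89.4%) were shared.

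Among genes that followed VAF3-1 and VAF3-2 only, urothelial and other epithelial genes led the higher side. All 20 tested urothelium markers of 21 fell in this class, against 8.71% of all tested genes. The list summed to at most 64.2 CPM outside the pair, and members near 0 there could be tested only through the counts of the pair. It was also written with earlier results of these data known, so these counts are a description. Their median log2FC was 8.70, or 7.86 with 3 genes absent at 6 months set to their lower bound, against 0.04 over all tested genes. DESeq2 called 11 of the 20 (2.2% of all genes in this direction), or 16 with VAF6-3 (2.68%), and edgeR without VAF3-3 called all 20 (6.46%). HSD17B2, which oxidises estradiol and testosterone, had the largest difference, with 1157 and 377 CPM in VAF3-1 and VAF3-2, 0.506 in VAF3-3, 0.294 and 0 in VAF6-1 and VAF6-2 and 0.114 in VAF6-3. Only the first pair of libraries held more than 1 CPM (log2FC 11.66, SE 3.40, edgeR adjusted p = 0.452), and the gene spans chr6:6296429-6360434 of Sscrofa11.1.

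Uroplakins, the membrane plaque proteins of urothelium, showed the same split. UPK2 (chr9:46200465-46202754) reached 450.4 and 180.1 CPM in VAF3-1 and VAF3-2 and at 0.0421 in VAF3-3, 0.294 in VAF6-1, 0 in VAF6-2 and 0.0380 in VAF6-3. UPK3A (chr5:4109985-4122272) was at 351 and 214 CPM in the pair and at 0.244 to 1.06 in the other 4 libraries. UPK1A was at 346 and 109.7 CPM in the pair and at most at 0.294 elsewhere. In each of the 3 genes the values of VAF3-3 lay among those of the 6-month libraries, and only the pair stood above them.

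Epithelial genes beyond the uroplakins followed. S100A2, a calcium-binding protein of stratified epithelium, was at 454 and 333 CPM in the pair and at 0.266 to 0.793 elsewhere (chr4:96073496-96076825). SFN, the 14-3-3 sigma protein of epithelial cells (chr6:84188521-84189824), was at 389.9 and 155 CPM against 0.122 to 0.353 elsewhere. EPCAM, an epithelial adhesion molecule, was at 278 and 68.3 CPM in the pair, 0.126 in VAF3-3, 0 in VAF6-1 and VAF6-2 and 0.0380 in VAF6-3, so its mean was at least 630.2-fold higher at 3 months against a floor of 3 counts in 1 library. FOXA1, a transcription factor of endodermal and urothelial epithelium, had 63.4 and 13.5 CPM in the pair and 0 in the other 4 libraries. None of these genes was above 1 CPM in VAF3-3.

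Smooth muscle genes split likewise. Of 13 tested genes, 9 followed VAF3-1 and VAF3-2 only, against 8.71% of all tested genes, and the median log2FC was 2.60, or 2.55 with VAF6-3. Without VAF3-3 edgeR called 11 (6.46% of all), while DESeq2 called 2 (2.2%), or 8 with VAF6-3 (2.68%), and the 3-month and 6-month groups overlapped in every gene of the list. This list too was written with earlier results known, so its counts are a description. MYH11, the myosin heavy chain of smooth muscle, was at 2777, 2003 and 119 CPM in the 3 libraries of 3 months in order, at 137 and 164 in VAF6-1 and VAF6-2 and at 183 in VAF6-3. ACTG2, the actin of visceral smooth muscle, was at 1353, 1057 and 5.77 CPM at 3 months against 17.3 and 7.20 at 6 months and 10.7 in VAF6-3. VAF3-3 was the lowest of the 6 libraries for both genes.

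On the lower side of the same class stood genes of fatty acid synthesis. SCD, the desaturase that makes oleate, was at 1143, 2305 and 11852 CPM in the 3-month libraries (VAF3-1, VAF3-2 and VAF3-3 in that order, and so for every gene from here on), at 21207 and 37319 in VAF6-1 and VAF6-2 and at 50.4 in VAF6-3 (chr14:111461560-111478033). ELOVL6, which elongates palmitate, was at 398, 486 and 2499.7 CPM against 4119 and 5896, with 232 in VAF6-3 (chr8:112038670-112190079). ME1, the malic enzyme that supplies NADPH, was at 270.2, 270.1 and 1302 CPM against 2111 and 4925, with 75.3 in VAF6-3 (chr1:82799878-82989895). The 3 genes rank the libraries alike: VAF6-2 highest, then VAF6-1, then VAF3-3, then the pair, with VAF6-3 lowest. Their log2FC were -2.50 (SE 1.02), -2.13 (SE 0.85) and -2.51 (SE 0.83), with edgeR adjusted p of 0.459, 0.455 and 0.452. Without VAF3-3 the log2FC of SCD was -4.09 (edgeR adjusted p = 0.011). SCD was named for its difference in the pair, so that fit is a description and no support for the difference.

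The other genes lowest in the pair by the naming rule were of mixed function. SAL1, a salivary lipocalin that carries small lipophilic molecules, was at 13.2, 30.7 and 115 CPM against 306 and 474, with 11 in VAF6-3 (chr1:253638017-253642835). ALOX15, which oxygenates arachidonic and linoleic acid, was at 0.266, 0.408 and 9.61 CPM against 40.5 and 12.6, with 5.43 in VAF6-3 (chr12:52287174-52295873). HK2, the insulin-responsive hexokinase, was at 11.5, 3.67 and 116 CPM against 77.7 and 212, with 18.3 in VAF6-3 (chr3:68155656-68231187). For HK2 the groups overlapped, since VAF3-3 lay above VAF6-1.

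Most of the list of de novo fatty acid synthesis was lower at 3 months than in VAF6-1 and VAF6-2. In 16 genes the log2FC was below 0 and in 3 above 0. By class, 5 were lower in all 3 libraries of 3 months (7.75% of all tested genes) and 10 in VAF3-1 and VAF3-2 only (5.24%). Of 19 tested genes, 16 had groups that did not overlap and were higher at 6 months, against 13.9% of all tested genes, and 1 was higher at 3 months (12.7% of all). The median log2FC was -1.43, and DESeq2 called 8, all of them higher at 6 months (0.99% of all genes). With VAF6-3 the median was -0.88, DESeq2 called 1 (0.371%), and 0 genes of the list were higher at 6 months without overlap (4.42%). The median difference from 6 months was -1.85 in VAF3-1, -1.85 in VAF3-2, -0.82 in VAF3-3 and -3.41 in VAF6-3. The summed level was 11656, 11409 and 46737 CPM at 3 months, 72870 and 118624 in VAF6-1 and VAF6-2 and 2157 in VAF6-3. With VAF6-3 counted, the 3-month libraries therefore lay inside the range of the 6-month libraries. Adipocyte markers moved with the list, with a median difference of -1.73, -1.61 and -0.20 in the 3 libraries of 3 months, and -0.76 in VAF6-3. Their part in the result was not tested.

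FASN, fatty acid synthase itself, was at 5429, 4278 and 17060.1 CPM at 3 months, 24488 and 40935 in VAF6-1 and VAF6-2 and 257 in VAF6-3 (chr12:922405-937560). Its log2FC was -1.86 (SE 0.75, edgeR adjusted p = 0.455), and -2.77 without VAF3-3 (edgeR adjusted p = 0.02). The list was written with earlier results of these data known, so the fit without VAF3-3 is a description. ACLY, which splits citrate to acetyl-CoA, was at 760.3, 835 and 3335 CPM against 6420.0 and 10888, with 129 in VAF6-3 (chr12:20796678-20841301, log2FC -2.38, SE 0.76, DESeq2 adjusted p = 0.025). ACACA, the carboxylase that makes malonyl-CoA, was at 458, 418 and 1514 CPM against 1792 and 2674, with 154 in VAF6-3. In all 3 genes VAF6-3 lay below every 3-month library.

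Some genes of the list were low in all 3 libraries of 3 months. ELOVL5, an elongase of polyunsaturated fatty acids, was at 403, 235 and 648 CPM against 2027 and 2292 (chr7:46860768-46932945), with 463 in VAF6-3, a log2FC of -2.33 (SE 0.48) and a DESeq2 adjusted p of 0.00037. SLC25A1, the citrate carrier of mitochondria, was at 353, 353 and 584 CPM against 1184 and 1368, with 50.1 in VAF6-3 (log2FC -1.56, SE 0.36, DESeq2 adjusted p = 0.0026). For both genes VAF3-3 was still the highest of the 3-month libraries, but closer to the other pair than to 6 months.

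**Figure D3:**
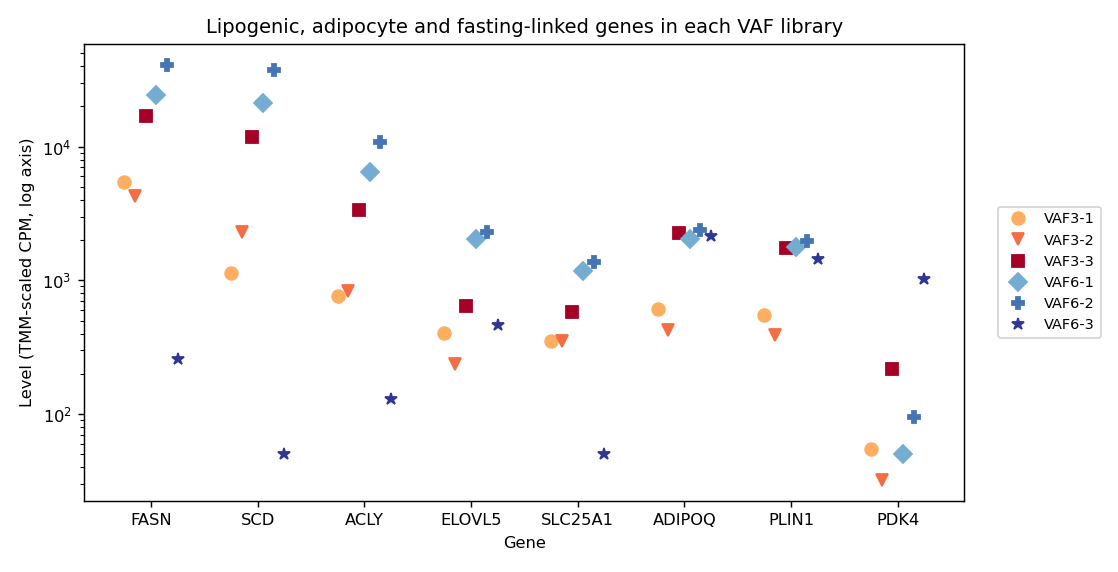
CPM (log axis) of 8 genes in each VAF library, 1 symbol per library. For FASN, SCD, ACLY and SLC25A1 the 2 symbols of VAF6-1 and VAF6-2 lie highest and VAF6-3 lowest, for ADIPOQ and PLIN1 only VAF3-1 and VAF3-2 lie low, and for PDK4 VAF6-3 lies highest at 1026 CPM.

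Promoters of ACLY and SCD are shown because these genes of one pathway ranked the 6 libraries in the same order. Each runs from 250 bases before to 25 bases after the start of the gene in the RefSeq annotation of Sscrofa11.1, on the plus strand, at chr12:20796428-20796702 for ACLY and chr14:111461310-111461584 for SCD. Capitals mark CACGTG, the E-box, and CCAAT or its reverse complement ATTGG.
ACLY: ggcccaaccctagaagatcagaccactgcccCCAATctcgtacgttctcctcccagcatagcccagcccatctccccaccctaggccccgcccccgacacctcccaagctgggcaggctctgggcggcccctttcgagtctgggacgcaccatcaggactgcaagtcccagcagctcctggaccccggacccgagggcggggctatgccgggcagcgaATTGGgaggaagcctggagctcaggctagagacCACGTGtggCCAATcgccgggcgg
SCD: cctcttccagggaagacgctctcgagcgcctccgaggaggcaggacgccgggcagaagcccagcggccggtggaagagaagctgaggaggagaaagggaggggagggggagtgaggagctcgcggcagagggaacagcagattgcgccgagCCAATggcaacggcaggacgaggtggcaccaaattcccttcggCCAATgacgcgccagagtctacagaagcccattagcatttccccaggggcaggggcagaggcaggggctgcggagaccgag
Over 300 bases from 250 before to 50 after the start, CCAAT was found on either strand in 10 of 19 promoters of the list (52.6%), against 35.4% of 19506 promoters of all genes, and CACGTG in 4 (21.1%) against 7.93%. The GC box GGGCGG was found in 12 (63.2%) against 50.6%, and TATAAA in 1 (5.26%) against 10.9%. FASN held none of these 4 motifs in its window. In the 15 sterol synthesis promoters CCAAT was found in 13 (86.7%), and in the 20 urothelium promoters in 4 (20%). A match describes the letters of the window only.

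For genes that adipocytes use to store and release fat, VAF3-3 lay with the 6-month libraries. ADIPOQ, which encodes adiponectin, was at 614, 425 and 2279 CPM at 3 months, at 2029.9 and 2386 in VAF6-1 and VAF6-2 and at 2141 in VAF6-3, and VAF3-3 lay within the 6-month range (log2FC -0.99, edgeR adjusted p = 0.702). PLIN1, the main coat protein of the lipid droplet, was at 551, 392 and 1735 CPM against 1789.7 and 1978, with 1452 in VAF6-3 (log2FC -1.07, edgeR adjusted p = 0.626). LIPE, hormone-sensitive lipase, was at 461, 501 and 1331 CPM against 1733 and 1347, with 1047 in VAF6-3, and it lies wholly within ATP5SL on the opposite strand. For these 3 genes VAF6-3 lay above VAF3-1 and VAF3-2, where for FASN, SCD and ACLY it lay below them. Over the lists, the median log2FC was -0.91 for 16 genes of triglyceride synthesis and the droplet coat, -0.94 for 13 genes of lipolysis and -0.40 for 19 regulators and adipokines, against 0.04 over all tested genes. DESeq2 called 2, 2 and 0 of them higher at 6 months (0.99% of all genes) and 1 gene of the lipolysis list higher at 3 months (2.2%), with the same counts once VAF6-3 was added (0.371% and 2.68% of all). Groups did not overlap in 8 genes of each list that were higher at 6 months (13.9%), and with VAF6-3 in 3, 4 and 3 (4.42%).

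Members of the lipolysis and droplet lists that differed in all 3 libraries went both ways. MGLL, monoglyceride lipase, was at 273, 318 and 572 CPM at 3 months against 1811 and 1558, with 694 in VAF6-3 (log2FC -2.11, SE 0.42, DESeq2 adjusted p = 0.00026, or 0.0085 with VAF6-3). AQP7, the glycerol channel, was at 87.2, 64.4 and 122 CPM against 277 and 222, with 245 in VAF6-3 (log2FC -1.45, SE 0.34, DESeq2 adjusted p = 0.011). PLIN5, a droplet protein of tissues that oxidise fat, was at 2.92, 3.26 and 4.93 CPM against 16.6 and 16.7, with 27.7 in VAF6-3 (log2FC -2.16, SE 0.39, DESeq2 adjusted p = 0.00011). G0S2, an inhibitor of adipose triglyceride lipase, was higher at 3 months, with 38.3, 58.4 and 59.0 CPM against 22.2 and 20.1, and 14.8 in VAF6-3 (log2FC 1.30, SE 0.31, DESeq2 adjusted p = 0.015). In these 4 genes VAF6-3 lay on the 6-month side of every 3-month library. G0S2 was also higher at 3 months in SAF, where the groups did not overlap.

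Genes of mitochondria were lower at 3 months than in VAF6-1 and VAF6-2 in each of the 4 lists fixed for them. All 12 tested protein genes of the mitochondrial genome had a log2FC below 0 (median -1.28), 10 had groups that did not overlap (13.9% of all tested genes in this direction), and DESeq2 called 6 (0.99%). By class, 8 were lower in all 3 libraries of 3 months (7.75% of all tested genes) and 4 in VAF3-1 and VAF3-2 only (5.24%). With VAF6-3 the median was -0.84, and in 0 of the 12 did the groups stay apart (4.42% of all) or DESeq2 make a call (0.371%). They summed to 46590, 44954 and 58968 CPM at 3 months, 103148 and 117548 in VAF6-1 and VAF6-2 and 24420 in VAF6-3. ATP6, a subunit of the ATP synthase, was at 6825, 6995 and 7728 CPM against 14540.2 and 15584, with 3417 in VAF6-3 (log2FC -1.06, SE 0.42, DESeq2 adjusted p = 0.0022), and COX2, of cytochrome c oxidase, at 6090.1, 5003 and 6789 against 11609.7 and 16631, with 3285 in VAF6-3. The 3-month values lay close together and below VAF6-1 and VAF6-2, but above VAF6-3.

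Nuclear genes of mitochondria were also lower at 3 months than in VAF6-1 and VAF6-2. Of 18 genes of pyruvate and citrate metabolism all had a log2FC below 0 (median -0.95) and 14 did not overlap. Of 15 genes of fatty acid oxidation all were below 0 (median -0.96) and 11 did not overlap, and of 15 carriers and import genes 14 were below 0 (median -0.96) and 13 did not overlap. DESeq2 called 3, 3 and 5 of them, all higher at 6 months, where 0.99% of all genes were called and 13.9% did not overlap. By class, 7, 5 and 9 were lower in all 3 libraries of 3 months (7.75% of all tested genes). Another 8, 5 and 3 were lower in VAF3-1 and VAF3-2 only (5.24%). With VAF6-3 DESeq2 called 0 in each list, 1 gene of each did not overlap (4.42% of all), and the medians were -0.62, -0.49 and -0.61. SLC25A10, the dicarboxylate carrier, was at 109.8, 129.5 and 163 CPM against 423 and 482, with 32.5 in VAF6-3 (log2FC -1.75, SE 0.30, DESeq2 adjusted p = 2e-05, or 0.56 with VAF6-3). MPC1, a subunit of the pyruvate carrier, was at 285, 384 and 346 CPM against 887 and 683, with 189.8 in VAF6-3, and PDHB, of pyruvate dehydrogenase, at 312, 227 and 595 against 1139 and 1296, with 65.5 in VAF6-3. In PDHB, VAF3-3 lay well above VAF3-1 and VAF3-2. ACADVL, which starts the oxidation of long-chain fatty acids, was at 97.3, 109 and 121 CPM against 266 and 253, and differed from the others in that VAF6-3, at 143, lay above all 3 libraries of 3 months. Its log2FC was -1.24 (SE 0.25, DESeq2 adjusted p = 0.00077, or 0.13 with VAF6-3).

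Steroid, retinoid and xenobiotic oxidoreductases had a median log2FC of -1.89 over 13 genes, against 0.04 over all tested genes, and 7 of the 13 were lower in all 3 libraries of 3 months (7.75% of all tested genes). DESeq2 called 7 higher at 6 months (0.99% of all genes) and 3 higher at 3 months (2.2%), and the 3 include HSD17B2. With VAF6-3 the median was -1.40, DESeq2 called 4 higher at 6 months (0.371%) and 3 higher at 3 months (2.68%), and the genes higher at 6 months without overlap went from 8 (13.9% of all) to 2 (4.42%). AKR1CL1, an aldo-keto reductase of a family with near-identical members, was at 57.6, 144 and 43 CPM at 3 months, 1119 and 696 in VAF6-1 and VAF6-2 and 72.2 in VAF6-3 (log2FC -3.47, SE 0.59, DESeq2 adjusted p = 3.8e-06). UGT1A6, a glucuronosyltransferase that shares exons with its neighbours, was at 105, 42.1 and 37.6 CPM against 295 and 325, with 2.24 in VAF6-3. ADH1C, an alcohol dehydrogenase that overlaps C8H4orf17 on the opposite strand, was at 35.2, 21.4 and 71.9 CPM against 427 and 238, with 55.1 in VAF6-3. For these 3 genes VAF6-3 sat with or below 3 months. HSD3B1, which makes progesterone and androstenedione from their precursors, was at 0.213, 0.204 and 0.759 CPM against 11.3 and 3.66, and VAF6-3, at 6.42, lay with VAF6-1 and VAF6-2 (log2FC -4.20, SE 0.85, DESeq2 adjusted p = 0.00035, or 4.4e-06 with VAF6-3).

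The 24 genes named by rule for a difference shared by all 3 libraries were the 12 with the smallest p in each direction. Each had an edgeR adjusted p of 0.452. Over the other edgeR settings this ran from 2.2e-26, for P2RX5 under a replicate block in which VAF3-3 stands alone, to 0.999 without VAF6-2, and without VAF3-3 it was 0.00084 to 0.033. Of the 24, 5 of the 12 higher at 3 months and 4 of the 12 higher at 6 months also had SAF groups that did not overlap in the same direction, against 8.37% and 6.84% of all tested genes. Genes were ranked by p within the class, so their own folds and p are a description.

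Of the genes higher at 3 months, 3 are known from kidney tubule or liver. ATP6V0A4, a subunit of the proton pump of renal intercalated cells (chr18:10868208-10966801), was at 8.93, 4.13 and 5.14 CPM at 3 months, 0.0588 and 0.122 in VAF6-1 and VAF6-2 and 0.190 in VAF6-3. Its mean was 6.07 ± 2.53 (SD, n = 3) against 0.0904 ± 0.0448 (SD, n = 2), a log2FC of 5.97 with an SE of 0.77 and a DESeq2 adjusted p of 3e-06. It was also higher at 3 months in SAF, at 0.854 to 3.56 CPM against 0.187 to 0.479. BHMT, which remethylates homocysteine (chr2:87911093-87935252), was at 8.03, 1.27 and 4.26 CPM against 0 in VAF6-1 and VAF6-2 and 0.0380 in VAF6-3, at least 24.7-fold higher against the floor. CDH16, a cadherin of kidney epithelium (chr6:27589183-27599002), was at 2.29, 0.867 and 3.08 CPM against 0 in all 3 libraries of 6 months, at least 11.3-fold higher. BHMT and CDH16 were at or near 0 in the SAF libraries of both ages. BHMT and CDH16 are members of the kidney list, so its sums given above, 24.8, 9.12 and 63.3 CPM against 1.82 to 6.87, include them. The sum was highest in VAF3-3, while ATP6V0A4 and BHMT were highest in VAF3-1. The part of the kidney markers in the result was not tested.

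STXBP2, which acts in exocytosis (chr2:71504575-71513446), was at 62.3, 47.5 and 37.4 CPM against 9.75 and 8.97, with 9.23 in VAF6-3 (log2FC 2.38, SE 0.31, DESeq2 adjusted p = 2.6e-07). It overlaps all of its length with PCP2 on the opposite strand, and the strand setting of the counting is not given in the sources used here. MMP16, a membrane-bound matrix metalloproteinase (chr4:48556826-48867959), was at 22.1, 23.3 and 19.4 CPM against 5.41 and 5.49, with 9.91 in VAF6-3 (log2FC 1.99, SE 0.30). NREP, a small protein of regenerating neurons and of fibroblasts (chr2:117505851-117867805), was at 279, 452 and 206 CPM against 61.8 and 68.3, with 55.8 in VAF6-3 (log2FC 2.27, SE 0.42). The groups were far apart in all 3 genes, also with VAF6-3 counted, and the 3-month libraries were spread over 206 to 452 CPM for NREP.

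NCAM1, a neural cell adhesion molecule (chr9:40628602-40960605), was at 40.7, 51.9 and 21.8 CPM against 6.29 and 9.09, and VAF6-3, at 18.9, lay just below VAF3-3. SRPX, a secreted sushi-repeat protein (chrX:34075577-34198462), was at 156, 208 and 105 CPM against 48.9 and 38.2, with 91.7 in VAF6-3. ADAMTSL1, a matrix glycoprotein (chr1:203936654-204944236), was at 10.7, 12.6 and 3.92 CPM against 0.823 and 0.427, with 3.49 in VAF6-3. In these 3 genes VAF6-3 lay nearer to VAF3-3 than to VAF6-1 and VAF6-2, without reaching it. COL26A1, a collagen (chr3:9003126-9164074), was at 6.27, 8.77 and 2.28 CPM against 0.353 and 0.122, with 0.380 in VAF6-3 (log2FC 4.56, SE 0.91), and it was higher at 3 months in SAF too (log2FC 4.82). SLC7A7, a transporter of cationic amino acids (chr7:76195774-76235406), was at 125, 55 and 61.8 CPM against 13.6 and 19.4, with 31.2 in VAF6-3. IFT22, of transport in cilia (chr3:8977497-8981635), was at 23.1, 25.5 and 22.8 CPM against 10.2 and 8.73, and its DESeq2 adjusted p was 0.0023 without and 0.3 with VAF6-3, whose value was 18.5. All 12 genes had groups that did not overlap with VAF6-3 counted, against 5.85% of all tested genes for this direction. The rule picked them by p from genes already apart without VAF6-3, so that share is not a like reference. Of 1976 tested genes apart and higher at 3 months without VAF6-3, 913 stayed apart with it.

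Of the 12 genes higher at 6 months, several are enzymes or adipocyte proteins. DHRS4, a carbonyl and retinal reductase of a multigene family (chr7:75242121-75255594), was at 61.1, 52.8 and 81.6 CPM at 3 months against 636 and 405 in VAF6-1 and VAF6-2. Its mean was 65.2 ± 14.8 (SD, n = 3) against 520.5 ± 163 (SD, n = 2), 7.99-fold lower at 3 months (log2FC -2.99, SE 0.34), with a DESeq2 adjusted p of 5.6e-12, or 0.0056 with VAF6-3. VAF6-3, at 69.2 CPM, lay among the 3-month libraries. POR, the reductase that feeds electrons to cytochromes P450 (chr3:10212734-10272184), was at 130.1, 118 and 93.9 CPM against 378 and 466, with 65.5 in VAF6-3 (log2FC -1.89, SE 0.28). APMAP, a membrane protein of adipocytes (chr17:30768485-30795002), was at 81.3, 67.6 and 89.9 CPM against 239 and 267, with 56.4 in VAF6-3 (log2FC -1.66, SE 0.26). DESeq2 with VAF6-3 gave adjusted p of 0.26 for POR and 0.28 for APMAP.

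P2RX5, an ATP-gated channel that marks brown adipocytes (chr12:49780241-49796287), was at 1.49, 1.07 and 5.69 CPM against 51.8 and 71.0, 22.3-fold lower at 3 months (log2FC -4.45, SE 0.74), but VAF6-3 was at 4.86. It is among the 9 genes split into a high and a low set in both depots. In SAF it was at 78.9, 56.4 and 1.33 CPM in SAF6-1, SAF6-2 and SAF6-3, so the library of that number was low in both depots. NTN1, the guidance protein netrin-1 (chr12:54089444-54292191), was at 59.8, 53.3 and 85.9 CPM against 232 and 273, with 64.3 in VAF6-3. GRAMD2A, a lipid-binding protein at membrane contacts (chr7:61032783-61078509), was at 11.7, 8.82 and 23.1 CPM against 83.0 and 112, with 4.33 in VAF6-3. PRR18, named without a role (chr1:2600779-2604733), was at 1.12, 1.58 and 1.31 CPM against 8.99 and 9.77, with 0.949 in VAF6-3. For all 4, VAF6-3 lay within or below the 3-month values.

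In the other 5 genes VAF6-3 stayed above every 3-month library. CD247, the zeta chain of the T cell receptor (chr4:83494266-83586887), was at 47.7, 63.5 and 50.8 CPM against 199 and 194, with 67.2 in VAF6-3 (log2FC -1.86, SE 0.26, DESeq2 adjusted p = 5.1e-07, or 0.042 with VAF6-3). CD3E, another chain of that receptor, did not follow it, with 5.37, 23.8 and 15.9 CPM against 10.5 and 9.58, and 3.08 in VAF6-3. C9, the last component of complement (chr16:24521318-24575939), was at 9.73, 10.7 and 4.13 CPM against 141 and 65.2, with 17.5 in VAF6-3 (log2FC -3.65, SE 0.51, 12.6-fold lower at 3 months). GYS2, the glycogen synthase of liver (chr5:51862952-51915153), was at 12.8, 11.9 and 10 CPM against 36.5 and 55.8, and VAF6-3 was highest at 80.5, which moved the log2FC from -2.00 to -2.29. WFS1, of the endoplasmic reticulum (chr8:4362678-4405185), was at 15.3, 22.3 and 16.6 CPM against 60.6 and 64.6, with 33.4 in VAF6-3, and SPOCK1, a matrix proteoglycan (chr2:139018177-139523601), at 1.91, 1.17 and 1.52 against 11.3 and 9.77, with 2.70 in VAF6-3. ITIH3, a plasma protein that binds hyaluronan and is on the fixed list of complement and plasma proteins, was at 33.4, 26.2 and 79.2 CPM against 343 and 227, with 327 in VAF6-3 (log2FC -2.61, SE 0.53, DESeq2 adjusted p = 0.00066, or 1.1e-05 with VAF6-3). Over that list of 17 genes the median log2FC was -0.10, with 4 called by DESeq2 higher at 6 months and 2 higher at 3 months (0.99% and 2.2% of all genes), or 2 and 2 with VAF6-3 (0.371% and 2.68%).

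**Figure D4:**
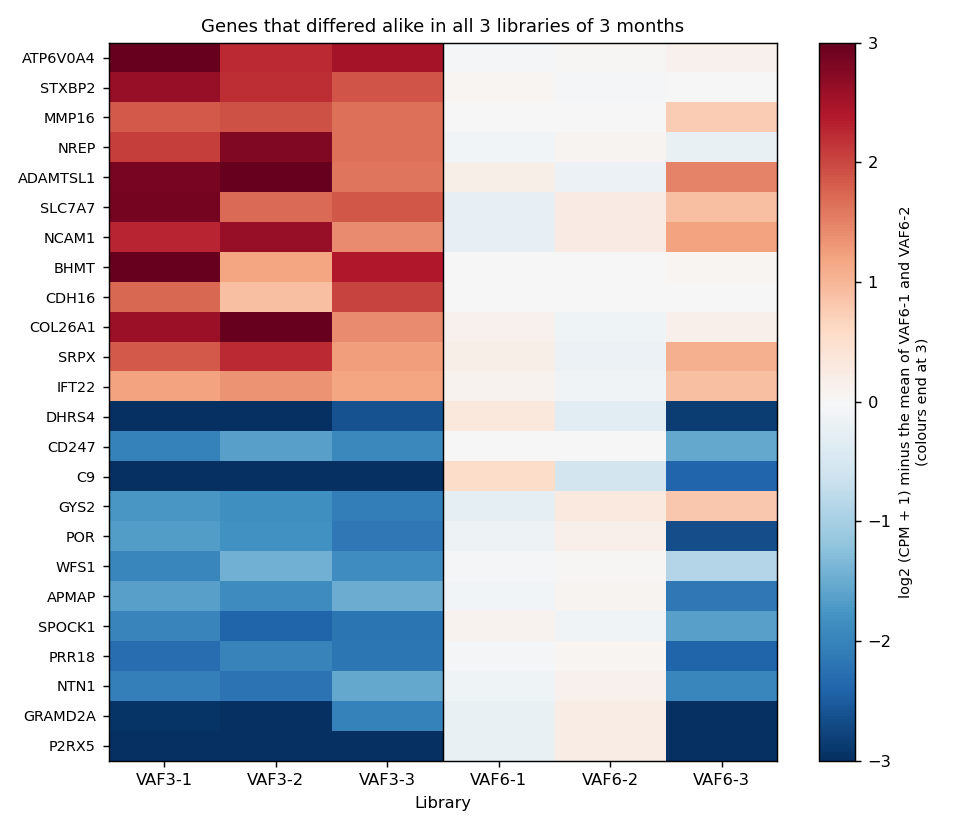
Colour gives log2(CPM + 1) minus the mean of VAF6-1 and VAF6-2 for the 24 named genes of the class shared by all 3 libraries (rows) in the 6 VAF libraries (columns), with colours ending at 3. The first 12 genes are red and the last 12 blue in every 3-month library, while the VAF6-3 column is blue for 11 of the last 12, GYS2 being the exception at 80.5 CPM.

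Over the whole shared class, VAF6-3 was nearer to 3 than to 6 months in 567 of the 915 genes higher at 3 months (62.0%) and in 903 of the 1209 higher at 6 months (74.7%), against 49.0% of all tested genes. The class was set by VAF6-1 and VAF6-2 without VAF6-3, so that last share is not a like reference. The mean of the 1-month VAF libraries, also outside the rule, was nearer to 3 months in 67.7% and 69.6%, against 55.3% of all tested genes. Among the 1359 genes high in VAF3-1 and VAF3-2 only, VAF6-3 was nearer to the 3-month mean in 311 (22.9%), and among the 817 low in that pair in 393 (48.1%). With VAF6-3 counted, groups did not overlap in 5.85% of tested genes higher at 3 months and 4.42% higher at 6 months, against 12.7% and 13.9% without it.

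Genes of cell division were higher at 3 months, though unevenly over the libraries. All 22 tested genes had a log2FC above 0 (median 1.23), 9 had groups that did not overlap (12.7% of all tested genes in this direction), and DESeq2 called 2 (2.2%). With VAF6-3 the median was 0.84, 5 did not overlap (5.85%) and DESeq2 called 1 (2.68%). The median difference from 6 months was 0.17 in VAF3-1, 0.98 in VAF3-2, 1.45 in VAF3-3 and 0.50 in VAF6-3, and 8 of the 22 were high in VAF3-3 only (1.74% of all tested genes). PRC1, which bundles microtubules in the dividing cell, was at 15.4, 7.14 and 11.3 CPM against 2.12 and 2.44, with 7.75 in VAF6-3 (log2FC 2.30, SE 0.48, DESeq2 adjusted p = 0.0011, or 0.23 with VAF6-3). POLE, of the leading-strand DNA polymerase, was at 5.48, 4.69 and 7.54 CPM against 0.705 and 1.59, with 2.54 in VAF6-3 (log2FC 2.36, SE 0.59), and MCM5, of the replicative helicase, at 8.93, 13.4 and 12.3 against 4.70 and 5.19, with 7.18 in VAF6-3. The levels are low, but in these 3 genes neither VAF6-1 nor VAF6-2 reached a 3-month library. In SAF the median log2FC of the same list was 1.76, or 1.51 without SAF6-3.

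Matrix genes were higher at 3 months in part. Of 24 genes of fibrillar and elastic matrix, 17 had a log2FC above 0 (median 0.39), 5 had groups that did not overlap and were higher at 3 months (12.7% of all tested genes), and DESeq2 called 3 (2.2%). With VAF6-3 the median was 0.25, 1 did not overlap (5.85%) and DESeq2 called 0 (2.68%). ELN, elastin, was at 1031, 2422 and 1073 CPM against 502 and 413, but 1753 in VAF6-3 (log2FC 1.73, SE 0.52, DESeq2 adjusted p = 0.021, or 0.75 with VAF6-3). POSTN, periostin, was at 156, 137 and 363 CPM against 65.1 and 46.1, with 239 in VAF6-3 (log2FC 1.99, SE 0.53), and COL6A6, a collagen VI chain, at 14.4, 44.9 and 63.5 against 6.35 and 12.9, with 59.0 in VAF6-3. In the 3 genes VAF6-3 lay within the 3-month range. NNAT, an imprinted gene that overlaps BLCAP on the opposite strand, was at 177, 310.2 and 489 CPM against 76.0 and 114, with 189 in VAF6-3 (log2FC 1.79, SE 0.51, DESeq2 adjusted p = 0.021), and it was higher at 3 months in SAF (log2FC 2.34). The list of 13 imprinted genes of fetal growth had a median log2FC of 0.40, with 3 higher at 3 months and 2 higher at 6 months without overlap, against 12.7% and 13.9% of all tested genes. With VAF6-3 the median was 0.17 and these counts were 0 and 1 (5.85% and 4.42%).

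Lists of immune, vascular and nerve cells differed among themselves. The 7 genes of lymphatic vessels all had a log2FC above 0 (median 1.28, or 0.75 with VAF6-3), 1 of them did not overlap (12.7% of all), and DESeq2 called 1 with or without VAF6-3 (2.2% and 2.68%). The median log2FC was 0.28 for 13 macrophage genes, 0.11 for 12 T and B lymphocyte genes, -0.39 for 10 genes of blood endothelium and 0.19 for 9 Schwann cell and nerve genes. LYVE1 and TIMD4, surface receptors of resident macrophages (LYVE1 also of lymphatic endothelium), were the 2 macrophage genes that DESeq2 called (2.2% of all genes in this direction), with log2FC of 1.01 and 1.82 and adjusted p of 0.025 and 0.007. With VAF6-3 it called 0 (2.68%). LYVE1 was at 107, 98.8 and 119 CPM against 46.7 and 60.7, and TIMD4 at 6.01, 8.00 and 5.73 against 1.76 and 1.95. VAF6-3 was far above both groups, at 487 CPM of LYVE1 and 25.1 of TIMD4, and with it the log2FC were -0.84 and -0.52.

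**Figure D5:**
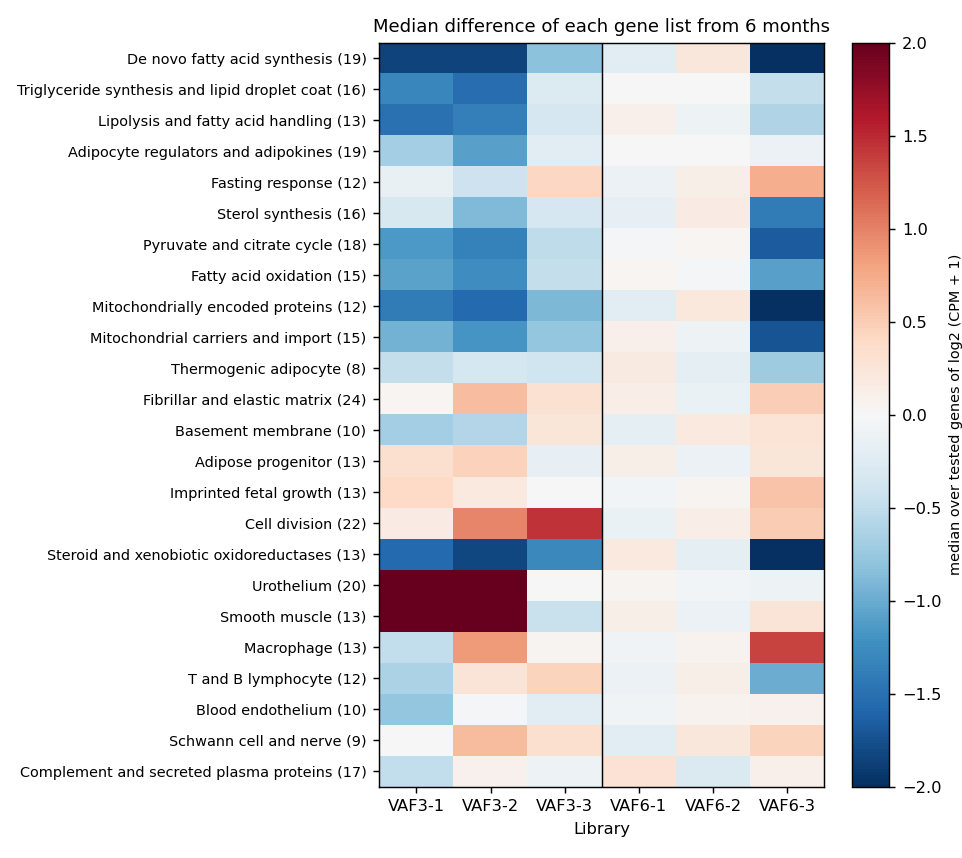
Colour gives the median over the tested genes of each list (rows, number of genes in brackets) of log2(CPM + 1) minus the mean of VAF6-1 and VAF6-2, in each VAF library, with colours ending at 2. The rows of mitochondrial lists are blue in all 3 libraries of 3 months and in VAF6-3, urothelium and smooth muscle are deep red in VAF3-1 and VAF3-2, and cell division is reddest in VAF3-3 at 1.45.

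Fewer genes fell in the class of VAF3-3 only than in the other classes. By the naming rule AOX1, CNTN1, SLA-3 and KY are described. AOX1 and SLA-3 are also among the 9 genes described above that were split into a high and a low set in both depots. In SAF, SLA-3 was high in SAF3-2, SAF3-3 and SAF6-3, at 82.5, 115 and 179 CPM, and AOX1 was at 108 in SAF3-1 and 74.8 in SAF3-3. AOX1, aldehyde oxidase (chr15:104157748-104234533), was at 17, 2.80 and 135 CPM against 32.6 and 2.32, with 0.646 in VAF6-3. CNTN1, a neural adhesion molecule (chr5:72168496-72495454), was at 3.88, 0.459 and 25 CPM against 1.06 and 2.32, with 1.18 in VAF6-3, and KY, of the muscle cytoskeleton (chr13:75726031-75774981), at 2.39, 1.94 and 12.8 against 0.118 and 0.854, with 2.13 in VAF6-3. SLA-3, a class I histocompatibility gene that lies within SLA-2 on the same strand (chr7:22938211-22942735), was at 7.71, 101 and 104 CPM against 10.4 and 8.97, with 137 in VAF6-3, so VAF3-2 was as high as VAF3-3 on the linear scale, and reads of such near-identical genes may be split between them. Of the 272 genes high in VAF3-3 only, 100 (36.8%) were higher at 3 months in SAF without overlap, against 8.37% of all tested genes. Of the 20 kidney list genes in the table, 3 were at 0 counts in VAF3-3, against 9 in VAF3-1, 12 in VAF3-2, 15 in VAF6-1, 16 in VAF6-2 and 13 in VAF6-3. Only 6 of the 20 had enough counts to be tested, of which 2 were higher in all 3 libraries of 3 months, 2 in VAF3-3 only and 1 in the pair only (5.87%, 1.74% and 8.71% of all tested genes).

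The age difference in VAF was set beside that in SAF. No gene passed an interaction of age and depot in edgeR (0 of 16263, 0.0%), while 944 (5.8%) had an unadjusted p under 0.05 and DESeq2 called 23 of 15771 (0.146%). Without VAF3-3 edgeR called 230 genes for the interaction. The fit held SAF6-3 but not VAF6-3 and no term for the pig. With SAF and VAF of one age and number taken as one pig, edgeR called 0 of 16155 genes without SAF6-3 and 0 of 15648 with VAF6-3 included, and 870 and 969 had an unadjusted p under 0.05. In SAF alone edgeR called 0 of 14689 genes (0.0%) and 1404 (9.56%) had an unadjusted p under 0.05. Of the 915 genes shared by all 3 libraries and higher at 3 months in VAF, 203 (22.2%) were higher at 3 months in SAF without overlap, against 8.37% of all tested genes. Of the 1209 higher at 6 months, 152 (12.6%) were higher at 6 months in SAF, against 6.84%. The median log2FC in SAF, with SAF6-3 kept, was 0.18 for de novo fatty acid synthesis, a list that summed to between 1854 and 97501 CPM in the SAF libraries of 6 months, and it was -0.34 without SAF6-3. The matching medians in VAF were -0.88 with VAF6-3 and -1.43 without it. For the steroid and xenobiotic oxidoreductases the medians were -1.47 in SAF with SAF6-3 and -1.66 without it, and -1.40 in VAF with VAF6-3 and -1.89 without it. Both depots were taken from the same 9 pigs, so these shares are not independent.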

How the data were processed

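RNA-seq was made from VAF and SAF of male Bama pigs of 1, 3 and 6 months. The authors trimmed reads in fastp, mapped the rest on the pig genome Sscrofa11.1 by HISAT2 (version 2.0.4 in the submitters' processing notes) and deposited the gene counts of HTSeq-count as whole numbers that are not normalized. The strand setting and the annotation release of the counting are not given in the sources used here. The table holds 29884 genes, of which 29795 matched 1 RefSeq symbol, and 0 library pairs held identical values. Groups follow the library names.

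VAF3-1, VAF3-2 and VAF3-3 were compared with VAF6-1 and VAF6-2 by the quasi-likelihood test of edgeR 4.0.16 (R 4.3.3) with TMM factors and filterByExpr, 2-sided and without a block, and p was adjusted over all tested genes. The interaction used 11 libraries of both depots, SAF6-3 included and VAF6-3 left out, without a term for the pig. Levels are CPM scaled by TMM over 18 libraries, and class differences use log2(CPM + 1). Named genes were those without a placeholder symbol: in each direction the 12 of smallest p in the class shared by all 3 libraries, the 6 largest differences in each direction of VAF3-1 and VAF3-2 only with 10 CPM or more in both libraries of the higher group, the 4 largest of VAF3-3 only with 5 CPM or more, and examples from the gene lists. A gene named by this rule and a list example are not reported here. Genes and lists were chosen with earlier results of these data known. Alternatives were DESeq2 1.42.0, its size factors, no filter, other libraries in the fit, a replicate block, titles in place of library names, no limit on the fold, CPM on raw library totals, other class limits and each library left out.

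Libraries held 17162797 to 22341686 counts, so that 1 CPM stands for few reads. A count of 0 was set to 3 counts in 1 library for lower bounds. Such bounds cover counting error only. The fits were tested on simulated counts. Coordinates and sequences come from RefSeq on Sscrofa11.1. Figures were drawn with Python 3.11.15.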

Additional observations from a re-analysis of the deposited data

Results flagged for a closer look

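Among the named genes, 3 stood more than 2-fold higher in VAF6-3, the library kept out of the tests, than in any of the other 5 VAF libraries of 3 and 6 months. PDK4, a kinase that turns off pyruvate dehydrogenase and is induced by fasting, was at 1026.3 CPM in VAF6-3, against 216.3 in VAF3-3, the next highest library. LYVE1 was at 486.88 CPM in VAF6-3 against at most 118.5 elsewhere, and TIMD4 at 25.064 CPM against at most 8.00. The list of fasting response genes, which includes PDK4, summed to 5360 CPM in VAF6-3 and to between 887 and 2351 in the other VAF libraries, and the macrophage list to 3984 CPM against 1099 to 2586. In the SAF libraries of 6 months the list ran from 1535 to 7049 CPM. Its median log2FC in SAF was -0.79, or 0.17 without SAF6-3, the SAF library of the same age and number as VAF6-3. Libraries of one age and number may come from one pig, so SAF6-3 may not be another animal. The pigs of all groups were fasted alike by the methods of the study, and what sets VAF6-3 apart was not tested.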

How the results depend on the processing

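The count of genes called between 3 and 6 months was 0 in edgeR, also with VAF6-3 included, by sample title, with DESeq2's size factors, without a filter and without a limit on the fold. It was 518 with DESeq2, 503 with DESeq2 and VAF6-3, 7 with all groups in the fit, and 0 to 1689 over the libraries left out in turn, the highest without VAF3-3. Without VAF3-3, chosen after seeing the data, it was 711 with VAF6-3 included and 2510 with DESeq2. For the interaction with depot, 0 calls became 23 with DESeq2 and 0 to 230 with 1 library left out, 230 without VAF3-3. Among genes of the fixed lists, 0 calls became 82 with DESeq2, 52 with DESeq2 and VAF6-3, and 0 to 157 with 1 library left out. The class shared by all 3 libraries held 2124 genes, 816 with VAF6-3 counted and 3022 to 3337 with VAF6-1 or VAF6-2 left out. Its split of 915 higher at 3 months and 1209 higher at 6 months became 2046 and 542 on raw library totals, and the class of VAF3-3 only held 413, or 364 to 855 (272 and 141, or 467 and 89 on raw totals). The class of VAF3-1 and VAF3-2 only held 2176, or 1887 to 2698 with VAF6-1 or VAF6-2 left out, and its split of 1359 higher and 817 lower became 1752 and 506 on raw totals. Genes with an unadjusted p under 0.05 numbered 1683, 2592 by title, 3554 by title with VAF6-3, 3016 with all groups in the fit, and 482 to 4037 with 1 library left out. The cause was not tested.

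Replicate numbers did not pair the libraries. Deviations of same-numbered libraries correlated across 14106 genes at 0.09, -0.17 and 0.10, below the 0.32 of VAF3-2 with VAF6-1. A replicate block called 2290 genes, and 1 with VAF6-3 included, and 3802 had an unadjusted p under 0.05 against 1683. As VAF3-3 is alone in its block without VAF6-3, that fit leaves it out in effect. For the interaction, fits with a block for the pig, chosen after seeing the data, called 0.

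Of 1545 values of 83 named genes under alternatives, 59 changed direction. By sample title the log2FC turned to ADH1C 0.037, AKR1CL1 0.24, ALOX15 0.28, AOX1 -2.02, C9 0.62, CDH16 -0.61, CNTN1 -2.98, COL6A6 -0.82, DHRS4 0.022, G0S2 -0.023, HSD3B1 0.81, KY -2.24, LYVE1 -0.12, NNAT -0.71, PDK4 -1.79, POLE -0.37, POSTN -0.81 and SLA-3 -0.53. By title with VAF6-3 it was ADH1C 0.41, AKR1CL1 0.71, ALOX15 0.58, AOX1 -1.39, ATP6 0.10, C9 0.90, CD247 0.0053, CNTN1 -2.39, COL6A6 -1.01, DHRS4 0.44, HSD3B1 0.12, KY -1.80, LYVE1 -1.37, MPC1 0.37, NNAT -0.47, PDK4 -3.25, POLE -0.083, POR 0.012, POSTN -0.83, SLA-3 -1.05, SPOCK1 0.054, TIMD4 -1.02 and UGT1A6 0.29. With VAF6-3 included, LYVE1 was at -0.84, PDK4 at -1.92 and TIMD4 at -0.52, and in DESeq2 at -0.88, -1.96 and -0.55. Over the libraries left out in turn, AOX1 ran from -0.85 to 4.48 and PDK4 from -0.77 to 1.01, both lowest without VAF3-3, and without it in DESeq2 they were at -0.82 and -0.74. With VAF6-3 in place of VAF3-3, AOX1 was at -0.28, LYVE1 at -0.9998, PDK4 at -3.23 and TIMD4 at -0.51. Under the block AOX1 was at -0.42, CNTN1 at -0.090 and PDK4 at -0.73, and with VAF6-3 included PDK4 at -1.23.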

Other observations

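Lists not described above stood closer to the median of all tested genes or rested on few genes. Of 16 genes of sterol synthesis, 7 had groups that did not overlap and were higher at 6 months (13.9% of all tested genes, median log2FC -0.36), DESeq2 called 3 (0.99%), and with VAF6-3 both counts were 0 and the median 0.03 (4.42% and 0.371% of all), while the median difference of VAF6-3 from VAF6-1 and VAF6-2 was -1.40. DHCR7, the last enzyme of cholesterol synthesis, was at 24.5, 36.8 and 39.7 CPM in the 3-month libraries against 74.1 and 100.5, with 9.34 in VAF6-3 (log2FC -1.37, SE 0.31, DESeq2 adjusted p = 0.014). The 12 genes of the fasting response had a median log2FC of 0.10, and VAF6-3 differed by a median of 0.73. The median was -0.44 for 8 thermogenic genes, -0.26 for 10 genes of basement membrane and -0.00 for 13 genes of adipose progenitors. The 4 tested genes of skeletal muscle had a median of 4.09. The 6 tested kidney genes, of 20 in the table, had a median of 3.12, or 2.55 with genes at 0 at 6 months set to their bound, and DESeq2 called 3 of them higher at 3 months (2.2% of all genes). In the skeletal muscle and kidney lists, genes near 0 at 6 months passed the filter only through 3-month libraries, so these medians are a description.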
